A study of Mus musculus with 2 samples.

Results

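The Slc22 genes encode membrane carriers that move organic anions, organic cations, carnitine and urate. Their products do most of this work in the proximal tubule of the kidney. Carriers on the blood side of the tubule cell take drugs, toxins and metabolites out of plasma, and carriers on the urine side secrete or reabsorb them. The glomerulus, a capillary filter built of podocytes, endothelium and mesangial cells, is not known for them. Of the family, 8 genes, Slc22a2, Slc22a4, Slc22a5, Slc22a6, Slc22a7, Slc22a8, Slc22a12 and Slc22a18, were described here through every probe set whose platform symbol was exactly 1 of these names. That gave 13 of 45037 probe sets without controls, and 8 of 18193 genes. A probe set is a group of short probes for 1 transcript.

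RNA came from glomeruli isolated from male KK/Ta mice, an inbred strain that becomes obese and diabetic, at 20 weeks of age. The first array held RNA of mice on a high-fat diet (HFD) and the second RNA of mice on a normal fat diet (Chow). The series text speaks of 3 mice, and neither it nor the labels say whether 3 stood behind each array or whether RNA was pooled. With 1 array per diet no difference below has a replicate check, a standard error or a test, and every value is a single measurement of 1 RNA preparation.

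All 8 genes had a higher centred signal in the HFD preparation, whereas 62.2% of all genes above the floor were higher by some amount. In the 7 genes measured above a floor on low signals on both arrays the fold ran between 1.07 and 2.32. Slc22a4, above the floor in HFD alone, could only be higher and has only a lower bound. Among these 7, the anion uptake carrier Slc22a6 had the largest fold (2.32), the cation uptake carrier Slc22a2 followed (1.71), and the carnitine carrier Slc22a5 was nearly level between the diets (1.07). Values were centred on each array's median, and a floor was set at that median, equal to an intensity of 42.3 in HFD and 44.9 in Chow as deposited. Lower signals were set to the floor and differences taken afterwards, so a probe set above the floor in HFD alone has a lower bound, written "at least". Of the 13 probe sets, 9 were above the floor on both arrays, 2 in HFD only, 0 in Chow only and 2 on neither.

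Slc22a6 and Slc22a8 are immediate neighbours among the coding genes of chromosome 19, and Slc22a5 and Slc22a4 lie on chromosome 11 with Slc22a21 between them. The 250 bases before the annotated start of each of these 4 genes are shown because they are 2 sets of close neighbours, of which the first shares a motif and the second is rich in CG dinucleotides. The sequences are those of RefSeq, build GRCm38.p6, written 5′ to 3′ on the strand of the gene. Capitals mark the motif GTTAAT, a half-site of the tubular factor HNF1, in the first pair and CG dinucleotides in the second.
Slc22a6, chr19:8617746-8617995, plus strand: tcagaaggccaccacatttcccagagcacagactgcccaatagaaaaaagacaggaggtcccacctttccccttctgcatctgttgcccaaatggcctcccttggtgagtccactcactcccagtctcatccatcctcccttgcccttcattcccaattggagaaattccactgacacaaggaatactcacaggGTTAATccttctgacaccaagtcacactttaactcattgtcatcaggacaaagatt
Slc22a8, chr19:8592932-8593181, plus strand: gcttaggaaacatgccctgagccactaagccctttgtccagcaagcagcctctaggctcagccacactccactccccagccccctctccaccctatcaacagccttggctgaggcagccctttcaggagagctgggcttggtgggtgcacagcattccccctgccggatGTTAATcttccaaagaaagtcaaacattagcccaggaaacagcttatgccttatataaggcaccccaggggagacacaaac
Slc22a5, chr11:53891704-53891953, minus strand: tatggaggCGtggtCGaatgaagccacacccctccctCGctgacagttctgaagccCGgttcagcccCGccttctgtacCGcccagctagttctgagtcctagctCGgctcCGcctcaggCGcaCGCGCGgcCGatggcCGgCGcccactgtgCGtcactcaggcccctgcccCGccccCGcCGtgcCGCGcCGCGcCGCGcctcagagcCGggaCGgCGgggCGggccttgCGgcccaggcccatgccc
Slc22a4, chr11:54028105-54028354, minus strand: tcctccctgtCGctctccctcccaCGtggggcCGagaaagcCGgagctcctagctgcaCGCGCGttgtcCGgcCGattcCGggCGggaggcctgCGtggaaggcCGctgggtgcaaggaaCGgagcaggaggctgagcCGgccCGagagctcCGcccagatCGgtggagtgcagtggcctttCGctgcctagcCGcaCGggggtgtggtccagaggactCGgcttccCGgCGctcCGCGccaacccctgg

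The promoter table held 7 of the 8 genes, and Slc22a7 is named only. GTTAAT, searched on both strands, stood at 56 to 51 bases before the start of Slc22a6 and at 81 to 76 bases before that of Slc22a8. It was in 2 of the 7 member windows and in 6.43% of all 32851 windows of this length. CAAAGT, a half-site of the factor HNF4, was in the Slc22a12 window only among the 7, on the minus strand, and in 12.6% of all windows. The nuclear receptor half-site AGGTCA (14.0% of all windows) and the TATA box letters TATAAA (12.4%) were in 0 of the 7. Only exact letters were searched, so variants of a motif, such as tatataag near the end of the Slc22a8 window, were not counted. No member window held more than 1 match of the 4 motifs, so none overlapped. The Slc22a5 window held 30 CG dinucleotides at 73.6% G and C, and that of Slc22a4 held 26 at 71.2%. The Slc22a6 window held 0 at 48.4% and that of Slc22a8 held 1 at 55.2%, against a median of 6 and 52.4% over all windows. A match of letters is a description of the window and shows no bound factor.

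The organic anion carriers were led by Slc22a6, which encodes OAT1, the blood-side carrier that takes up para-aminohippurate in exchange for a dicarboxylate. Its brighter probe set (1417072_at) read 308 in HFD and 141 in Chow, a centred difference of 1.21 log2 units (2.32-fold). The dimmer one (1438332_at) read 74.4 in HFD and 36.2 in Chow, under the floor in Chow, so it was at least 1.76-fold higher. Both probe sets of Slc22a6 were thus higher in HFD, the dimmer one by a size that only its bound gives.

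Slc22a8 encodes OAT3, the second main anion carrier of the blood side. Its brighter probe set (1416966_at) read 406 in HFD and 285 in Chow, 1.51-fold higher. The dimmer one (1435418_at) read 36.2 in HFD and 36.8 in Chow, under the floor on both arrays, and gives no fold. Slc22a7 encodes OAT2, a carrier of anions and nucleotide-related compounds, and has 1 probe set here (1451460_a_at). It read 65.5 in HFD and 54.2 in Chow, 1.28-fold higher at a signal close to the floor. Its difference of 0.35 log2 units was about as large as the scatter of differences among probe sets of like signal (scaled median absolute deviation 0.33), while the 1.21 of Slc22a6 stood against a scatter of 0.28. This scatter holds noise and real differences together.

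Slc22a12 encodes URAT1, which reabsorbs urate on the urine side. Its brighter probe set (1422898_s_at, a type that may match several transcripts) read 454 in HFD and 372 in Chow, 1.29-fold higher. The dimmer one (1422897_at) read 114 in HFD and 80.3 in Chow, a difference of 0.59 log2 units. Both were above the floor on both arrays and higher in HFD, and they differed from each other by 0.22 log2 units.

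Among the cation and zwitterion carriers, Slc22a2 encodes OCT2, which takes up organic cations on the blood side. Its probe set (1419117_at) read 301 in HFD and 186 in Chow, 1.71-fold higher (0.78 log2 units, scatter 0.24). Slc22a4 encodes OCTN1, a carrier of ergothioneine. Its probe set (1417639_at) read 66.5 in HFD and 23.1 in Chow, so it was above the floor in HFD alone and at least 1.57-fold higher. With no floor the difference was 1.61 log2 units (3.05-fold), a value that rests on a Chow signal under the floor.

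Slc22a5 encodes OCTN2, the sodium-coupled carrier that recovers carnitine from the filtrate. The brighter probe set (1450395_at) read 856 in HFD and 851 in Chow, a centred difference of 0.092 log2 units. The dimmer one (1421848_at) read 123 in HFD and 105 in Chow, 1.24-fold higher. Both differences were smaller than the scatter at their signal (0.19 and 0.32). Slc22a18, an imprinted gene whose transport role is poorly known, had a brighter probe set (1417809_at) at 248 in HFD and 187 in Chow, 1.41-fold higher. Its dimmer one (1427531_a_at) read 27.2 in HFD and 15.2 in Chow, under the floor on both arrays.

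**Figure D1:**
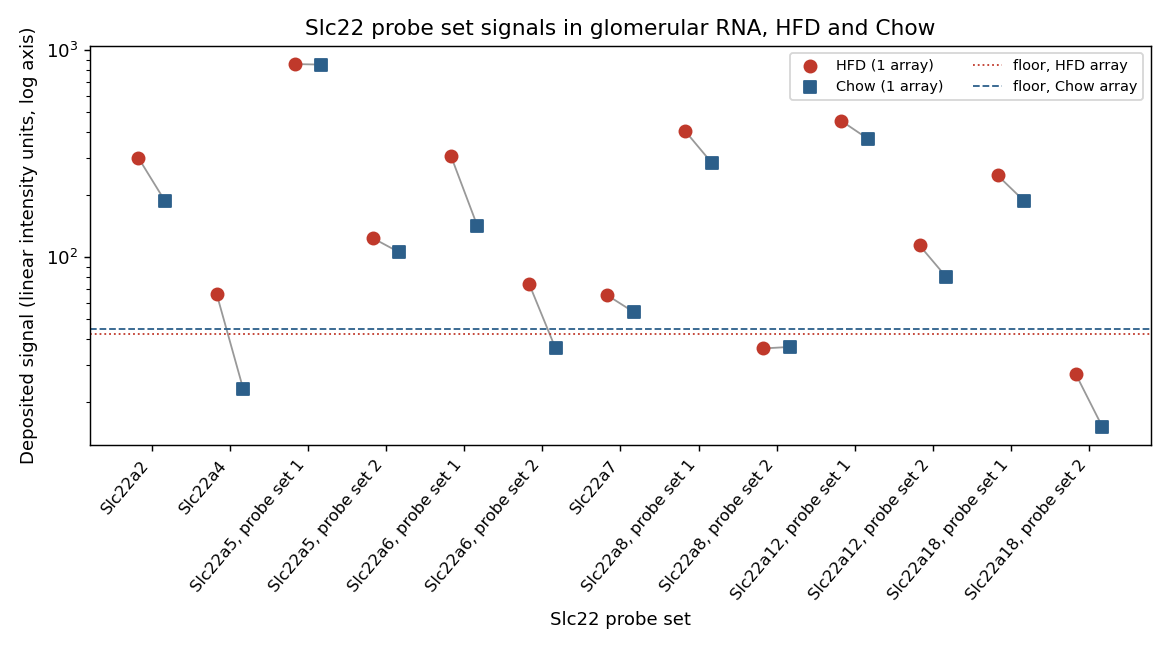
Deposited signal (vertical log axis, linear intensity units) of the 13 Slc22 probe sets on the HFD array (red circles, left of each pair) and the Chow array (blue squares, right), with the floor of each array as a horizontal line. Probe set 1 is the brighter of a gene. Slc22a6 slopes down from HFD to Chow in both probe sets, and Slc22a5 probe set 1 is nearly level. Signals of different probe sets are not comparable as amounts of transcript.

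By count, all 11 member probe sets above the floor on at least 1 array were higher in HFD by some amount, against 56.6% of all 23419 such probe sets. At least 2-fold higher was 1 of the 11 probe sets, against 0.615%, and 0 were at least 2-fold lower, against 0.295%. At a fold of 1.5, 6 of the 11 were higher, against 3.66%, and 0 were lower, against 2.58%. The 6 were both probe sets of Slc22a6, that of Slc22a2, that of Slc22a4, the brighter of Slc22a8 and the dimmer of Slc22a12. Of the 11, the 2 above the floor in HFD alone could only be higher, so the 9 above it on both arrays are given apart: all 9 were higher by some amount, where 57.1% of all such probe sets were, and 1 was at least 2-fold higher, where 0.537% were. Their median was 0.49 log2 units, and that of all 21617 probe sets above the floor on both arrays was 0.041. With no floor all 13 were higher in HFD after centring, where 53.7% of all probe sets were, and 3 were at least 2-fold higher, where 10.8% were. The dimmer Slc22a8 probe set, at 0.059 log2 units and under the floor on both arrays, was among the 13 only through centring. Its uncentred difference was -0.024, so 12 were higher and 1 lower in the values as deposited. Of the 5 genes with 2 probe sets, Slc22a5 and Slc22a12 had both above the floor on both arrays, and each pair went the same way with a gap of 0.22 log2 units. In the other 3 genes the dimmer probe set was under the floor on at least 1 array, so no gap is given. Probe sets of 1 gene share its RNA and are no replicates of the diet.

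**Figure D2:**
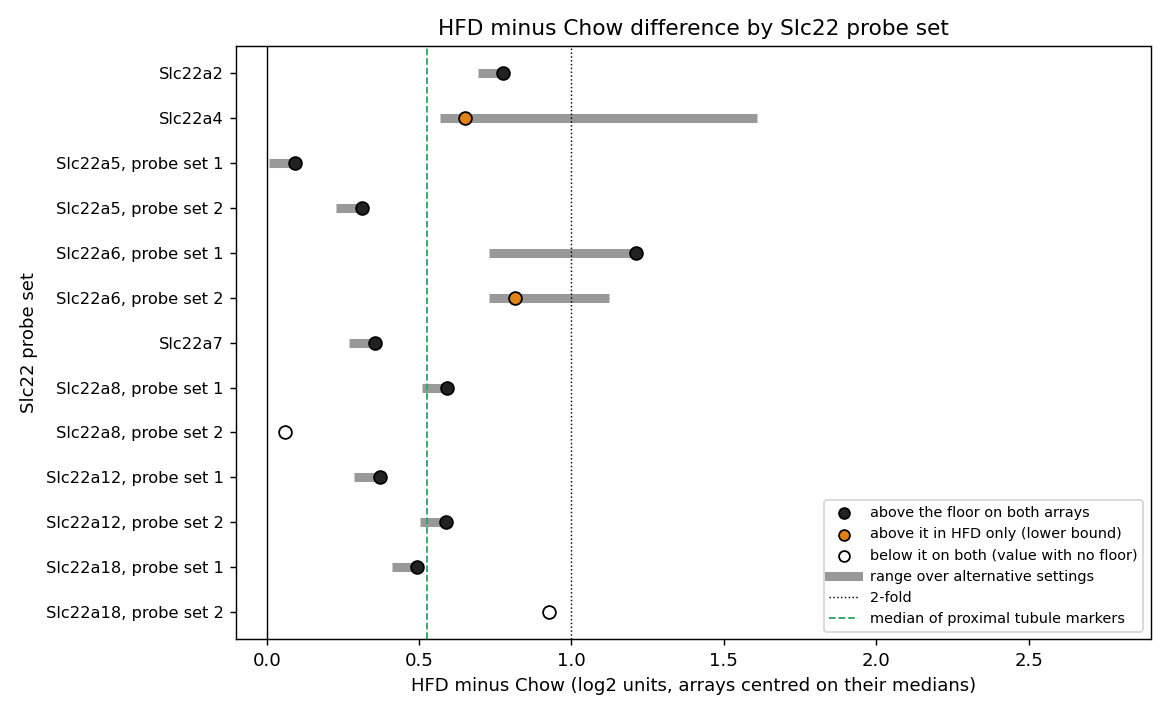
HFD minus Chow difference (horizontal axis, log2 units after centring) of each Slc22 probe set, as a black point (above the floor on both arrays), an orange point (in HFD only, a lower bound) or an open point (on neither, value with no floor). Grey bars span the alternative settings of scaling and floor, the dotted line marks 2-fold and the dashed green line the median of the proximal tubule markers (0.53). Right of the green line stand Slc22a6, Slc22a2, Slc22a4, the brighter Slc22a8 probe set and the dimmer ones of Slc22a12 and Slc22a18. The other points, among them those of Slc22a5, stand to its left.

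**Figure D3:**
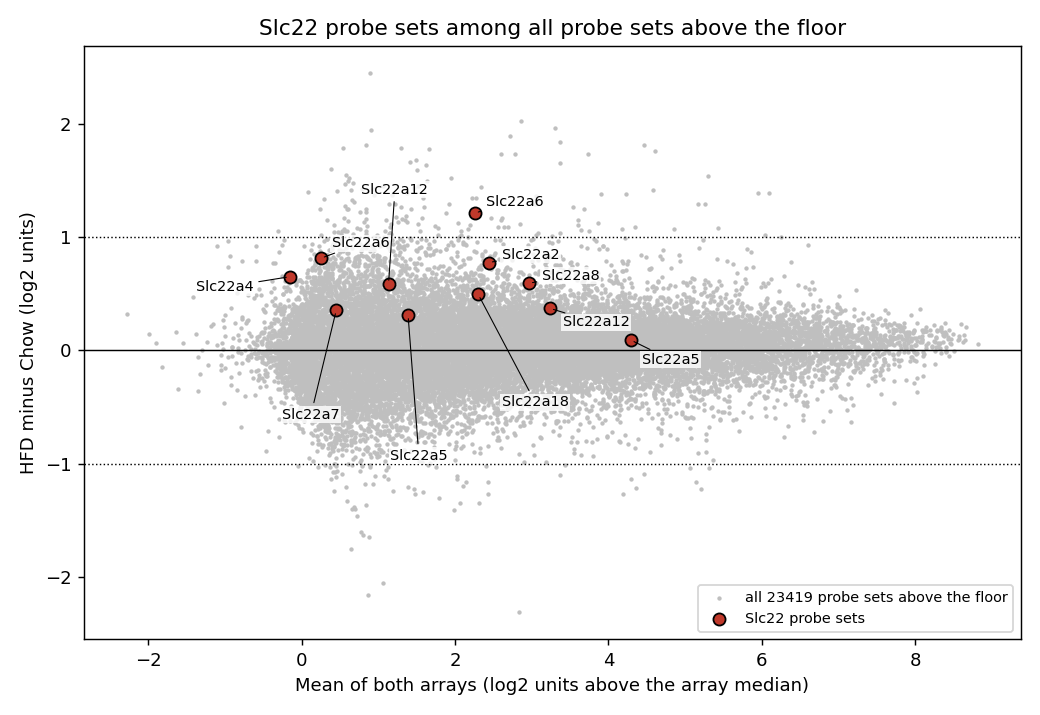
HFD minus Chow difference (vertical axis, log2 units) against the mean of both arrays (horizontal axis, log2 units above the array median) for all 23419 probe sets above the floor on at least 1 array (grey) and the 11 Slc22 probe sets among them (red). The dotted lines mark 2-fold in each direction, which the brighter Slc22a6 probe set passes. Slc22a4 and the dimmer Slc22a6 probe set are drawn at their lower bounds.

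The preparations held RNA of glomerular cells and of tubule. All 17 podocyte markers measured were above the floor on both arrays, 4 of them higher and 13 lower in HFD after centring. The slit diaphragm gene Nphs1, among the 4, read 5421 in HFD and 5427 in Chow. Of 26 proximal tubule markers measured, both arrays held 25 above the floor, and 1 more (Ass1) was above it in HFD alone. Their median difference was 0.53 log2 units (1.44-fold), 24 were higher and 2 lower in HFD, and their signals summed to 28421 in HFD and 21169 in Chow. Among them, the amino acid carrier subunit Slc3a1 was 2.10-fold higher (277 in HFD, 140 in Chow), the brush-border peptidase Dpep1 2.00-fold, Cyp2e1 1.96-fold and the fatty acid carrier Slc27a2 1.72-fold. Loop, distal tubule and collecting duct markers were above the floor for 13 of 17 measured, 11 higher and 2 lower, with a median of 0.62. Cldn16, Scnn1g, Foxi1 and Slc4a1 were under the floor on both arrays. Signals of the 17 summed to 18528 in HFD and 16564 in Chow. Wnk1, 1 of the 2 lower markers, alone gave 9215 and 9945 of these sums. In whole preparations of this kind, fewer cells of a type and less RNA per cell cannot be told apart. Genes above the floor in HFD alone could only be higher and enter list medians at their bound. Over genes above the floor on both arrays the proximal median was 0.55 (23 higher, 2 lower) and the distal one 0.63 (10 higher, 2 lower).

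The median over the 8 Slc22 genes, each by its brighter probe set, was 0.54 log2 units (1.46-fold), beside 0.53 for the proximal markers and 0.064 over all 11356 genes above the floor. At least 1.5-fold higher were 4 of the 8, and 4.21% of all genes. Of these 4, Slc22a4 was above the floor in HFD alone and could only be higher. Slc22a8 stood at 1.51-fold and fell under 1.5-fold with no centring (0.51 log2 units). At least 2-fold higher was 1 of the 8, and 0.722% of all genes. The counts of lower genes were 0 at either fold, against 1.41% and 0.159%. Relative to the proximal marker median, Slc22a6 stood 0.69 log2 units higher, Slc22a2 0.25, Slc22a4 (a bound) 0.12 and Slc22a8 0.067 higher. Slc22a18 stood at -0.032, Slc22a12 at -0.15, Slc22a7 at -0.17 and Slc22a5 at -0.43. By the brightest probe set of each gene, the difference of Slc22a6 was larger than that of each of the 25 proximal markers above the floor on both arrays. The second probe set of the marker Slc16a9, at 1.37 log2 units (131 in HFD, 53.8 in Chow), exceeded it. The difference of Slc22a6 was also smaller than that of the sulphate carrier Slc13a1, a tubular gene outside that list. The part of tubule RNA in the Slc22 differences was not tested.

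Podocyte markers differed by a median of -0.12 (4 higher and 13 lower of 17, summed signal 94811 in HFD and 106529 in Chow). The medians were 0.18 for glomerular endothelial markers (15 measured), 0.15 for mesangial and contractile markers (9) and 0.15 for parietal epithelial markers (6). Macrophage markers had a median of 1.26 in 14 of 15 measured, 11 of them at least 2-fold higher, with a summed signal of 6125 in HFD and 2460 in Chow and Itgam under the floor on both arrays. Of the 14, 4 were above the floor in HFD alone, and the other 10 had a median of 1.44. The 7 Slc22 genes above the floor on both arrays each differed by less than the macrophage median.

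**Figure D4:**
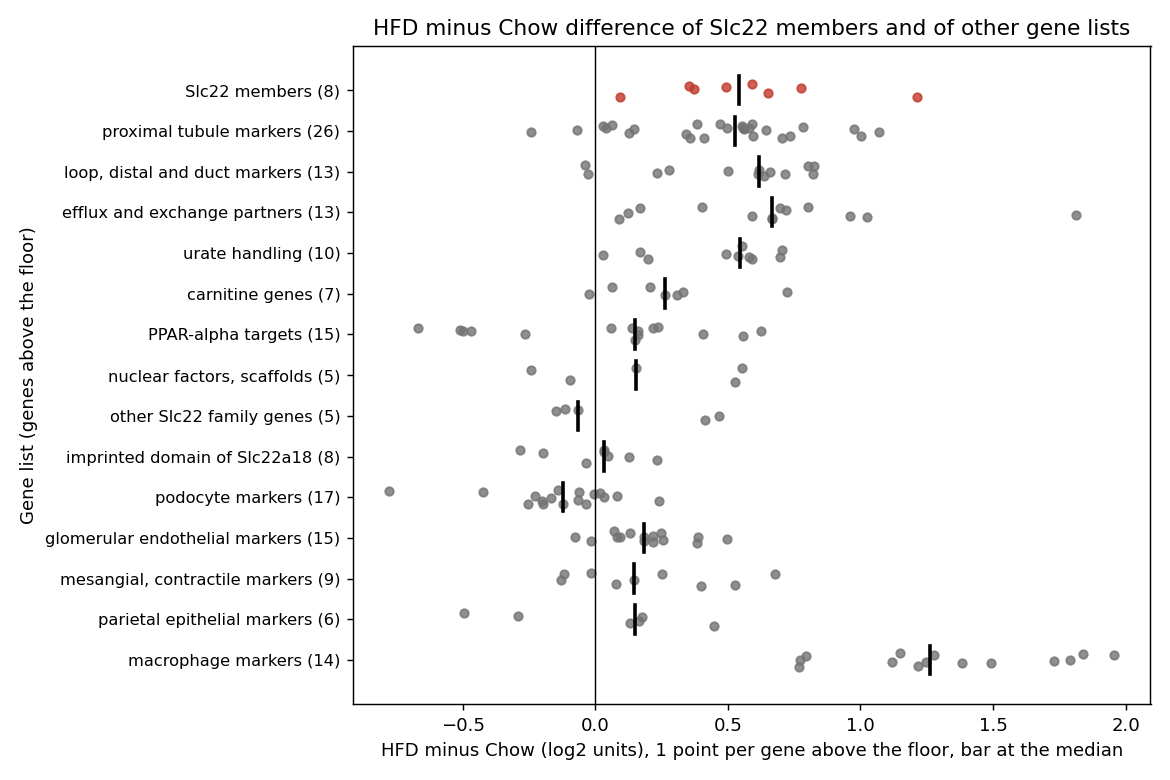
HFD minus Chow difference (horizontal axis, log2 units) of each gene above the floor on at least 1 array, 1 row for the 8 Slc22 genes (red) and 1 for each other gene list (grey), with a bar at the median. The Slc22 median (0.54) lies beside that of the proximal tubule markers (0.53), above that of the podocyte markers (-0.12) and below that of the macrophage markers (1.26).

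Of 16 efflux and exchange partners of the Slc22 carriers measured, 12 were above the floor on both arrays, and these 12 were higher in HFD, with a median of 0.68 log2 units. At least 2-fold higher were 2 of them. Slc26a1 was above the floor in HFD alone, and Abcb1b, Slco1a4 and Slco4c1 were under it on both arrays. The sulphate carrier Slc13a1 was 3.51-fold higher in its brighter probe set (1751 in HFD, 528 in Chow), while its dimmer probe set differed by -0.28. The dicarboxylate carrier Slc13a2, which supplies the exchange substrate of anion uptake from the urine side, was 2.04-fold higher (135 in HFD, 70.4 in Chow). Abcb1a, a P-glycoprotein that exports cationic drugs, was 1.95-fold higher, and the second of its probe sets 1.58-fold. Slc47a1 encodes MATE1, which passes cations taken up by OCT2 into the urine. It read 274 in HFD and 176 in Chow, 1.65-fold higher beside 1.71-fold for Slc22a2. The anion exporters Abcc2 and Abcc4 were 1.59-fold and 1.32-fold higher. Nearer to level were the exporter Abcg2, which also carries urate (2646 in HFD, 2496 in Chow, 1.12-fold), and Slc13a3, the blood-side dicarboxylate carrier (358 in HFD, 347 in Chow, 1.09-fold in its brightest probe set). A dimmer Slc13a3 probe set, also measured in both preparations, was 1.67-fold higher (197 in HFD, 125 in Chow).

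Of the urate handling genes, 9 were above the floor on both arrays, and these 9 were higher in HFD in their brightest probe sets, 0 by 2-fold, with a median of 0.55. Slc5a8 was above the floor in HFD alone. The lists overlap, so their counts are not separate observations. Slc17a1, Slc17a3 and Abcg2 are also among the efflux and exchange partners. Slc5a12 and Slc16a9 are also among the proximal tubule markers, and Pdzk1 is also among the scaffolds below. The monocarboxylate-family carrier Slc16a9 was 1.49-fold higher in its brighter probe set and 2.59-fold in its dimmer one. Slc17a1 and Slc17a3, phosphate-family carriers that secrete urate, were 1.62-fold and 1.51-fold higher, and the lactate carrier Slc5a12, on whose substrate urate exchange depends, 1.63-fold. The folds of Slc17a1, Slc17a3 and Slc5a12 were larger than the 1.29-fold of the brighter Slc22a12 probe set and, at 0.59 to 0.70 log2 units, at or above the 0.59 of the dimmer one. Pdzk1, a scaffold that holds URAT1 at the brush border, was 1.47-fold higher. The urate-forming enzyme Xdh was nearly level (773 in HFD, 803 in Chow, a centred difference of 0.030).

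The carnitine genes lay nearer to Slc22a5. Of 7 above the floor, 6 were higher and 1 lower, with a median of 0.26 and none at 2-fold. Tmlhe, which starts carnitine synthesis, was 1.65-fold higher by the brightest of its probe sets, but its other probe sets differed by -0.18 and 0.0091. Crot, Crat and Cpt1a, which load acyl groups on carnitine, were 1.26-fold, 1.24-fold and 1.20-fold higher, though 1 of the 3 Cpt1a probe sets above the floor was higher and the others were not. The shuttle Slc25a20 differed by -0.023. Targets of the fatty acid receptor PPAR-alpha, which also drives Slc22a5 in mouse liver, were higher for 10 and lower for 5 of 15, with a median of 0.15. Hadha and Pdk4 differed by 0.63 and 0.56, Fabp3 by -0.67 and Cyp4a14 by -0.51.

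Of the nuclear factors and scaffolds, 5 were above the floor, 3 higher and 2 lower, with a median of 0.15. Hnf4a, a factor that drives tubular carrier genes, was 1.44-fold higher by the brightest of its probe sets (488 in HFD, 359 in Chow), and its other 3 probe sets above the floor were higher by 0.053 to 0.39 log2 units, 2 of them as bounds. Bcl6, a repressor, differed by -0.24. The genes around Slc22a18 in its imprinted domain had a median of 0.035 in 8 of 10, beside 0.49 for Slc22a18. Its coding neighbour Cdkn1c, a podocyte cell cycle inhibitor, read 14522 in HFD and 15025 in Chow, a centred difference of 0.034. Phlda2, the neighbour on the other side, was under the floor on both arrays.

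Of 12 other Slc22 genes measured, 5 were above the floor, 2 higher and 3 lower, with a median of -0.066 and none at 2-fold. With Slc22a22, a family gene outside that list (0.91), the count was 3 higher and 3 lower and the median 0.17. Slc22a23, an orphan carrier, differed by 0.47 and the kidney carrier Slc22a30 by 0.41. Slc22a17, a receptor of lipocalin-2 and not an ion carrier of the tubule, read 349 in HFD and 409 in Chow (-0.15), and Slc22a13 differed by -0.12. Slc22a21, between Slc22a5 and Slc22a4, was under the floor on both arrays.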

How the data were processed

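The values are probe set intensities that the authors deposited on a linear scale, 1 column per array (Affymetrix Mouse Genome 430 2.0). RNA was purified on RNeasy columns and labelled in 2 cycles, per the labels' protocols, and the series text names GeneSpring 7.3.1 for the comparison. Summarisation, scaling and detection calls are not given in the sources used here. After removal of 64 control probe sets, values were log2-transformed and centred on each array's median, which added 0.083 to every HFD minus Chow difference. The floor was the 50th percentile. The precision is limited by the number of arrays; their log2 signals correlated across probe sets with r = 0.945 (probe sets are not replicates). Scatter is the scaled median absolute deviation in 10 bins of mean signal, taken over probe sets above the floor on both arrays only.

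Symbols came from the platform annotation of 2016. All 8 member symbols matched RefSeq unchanged. Genes outside the members were represented by their brightest probe set. The members and the 14 lists (7 of cell types) were chosen with earlier results of these data known. Every member probe set was named, and up to 4 genes with the largest difference per list. Genes outside that rule (Slc47a1, Abcc2, Abcc4, Abcg2, Slc13a3, Xdh, Slc25a20, Nphs1, Cdkn1c, Slc22a22 and genes under the floor on 1 or both arrays) were named for their role or position after their values were seen. Wnk1, also outside it, was named for its share of a summed signal. The motifs were chosen after the differences were known. The difference calculation was checked on simulated data, for probe sets above the floor on both arrays only, so the lower bounds were not checked. Alternatives were no centring, quantile and loess (span 0.3) normalization, floors at the 30th and 70th percentile or none, the 25th percentile added before log2, other fold thresholds, and other choices of probe set. Python 3.11.15, numpy 2.4.6, pandas 2.3.3 and statsmodels 0.14.6 were used.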

Additional observations from a re-analysis of the deposited data

How the results depend on the processing

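With 1 array per diet, no array could be left out and nothing could be tested. No paired analysis was possible because each diet has 1 array and the labels carry no replicate numbers. The median over the Slc22 genes was 0.54 log2 units and ran from 0.46 (no centring) to 0.59 (without probe sets that may match several transcripts) over the settings other than the last one given here. Under the 7 settings of scaling, floor or added value, 0 values of the 11 Slc22 probe sets above the floor on at least 1 array changed sign. With the floor at the 70th percentile only 6 of the 11 had a value. The dimmer Slc22a8 probe set, under the floor on both arrays, was at 0.059 with centring and -0.024 without. The count at least 2-fold higher was 1 of 11, against 0.615% of all probe sets above the floor. With no floor it was 3 of 13 (both probe sets of Slc22a6 and that of Slc22a4), against 10.8% of all probe sets. It was also 3 of 13 with a floor at the 30th percentile, and 2 of 13 with the 25th percentile added. With a floor at the 70th percentile it was 0 of 6. There the Chow signal of Slc22a6 lay under the floor and its difference became a bound of 0.73. At 1.5-fold the count was 6 of 11, against 3.66%, and at 3-fold 0 of 11. The share of all probe sets was not computed for the other floors, the added value or 3-fold. The count at 1.5-fold depended on scaling. The brighter Slc22a8 and dimmer Slc22a12 probe sets fell under 1.5-fold with no centring (0.51 and 0.50 log2 units). They also did so with quantile (0.55 and 0.57) and loess normalization (0.55 and 0.58). The bound of Slc22a4 fell under it with no centring (0.57). The count at least 2-fold lower was 0 throughout. Centring on the proximal tubule markers, an alternative chosen after seeing the data, left a median of 0.017 and 0 probe sets at least 2-fold higher. Slc22a6 then stood at 0.69 and Slc22a5 at -0.43. Differences of Slc22a4, Slc22a7 and the dimmer probe sets rest on low signals. For Slc22a7 and the dimmer probe sets of Slc22a5 and Slc22a12, above the floor on both arrays, the scatter was 0.32 to 0.37 log2 units. For probe sets under the floor on 1 or both arrays no scatter was measured.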

Other observations

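One further gene of the family, Slc22a22, belonged neither to the 8 genes nor to the other family genes listed. In mouse kidney it encodes a prostaglandin carrier of the proximal tubule. Its probe set read 126 in HFD and 71.1 in Chow, 1.88-fold higher, with both values above the floor and a scatter of 0.37 log2 units at that signal. Counted with the other family genes, it moved their median to 0.17, against -0.066 without it. A probe set assigned to Slc22a29 and Slc22a30 together was under the floor on both arrays (12.8 in HFD, 2.36 in Chow).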
